A study of Mus musculus with 2 samples.

Results

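The report concerns 2718 autosomal intervals of the mouse genome whose methylation-dependent signal was very bright both at postnatal day 21 (P21) and on the day of birth (P0). They were chosen from 18367 autosomal intervals with at least 2 probes, of which they make up 14.8%, and from 18761 such intervals on all chromosomes. An interval, called a run here, groups neighbouring probes that lie no more than 500 bp from each other. A run was taken when its mean log2 processed signal was 13 or more at P21 and at P0 on both of the 2 arrays, which is 8192 units on the scanner's linear scale. The signals that chose the runs are described below without a test. DNA came from the hypothalamus of female P21 mice and of female P0 mice. Animals of both ages were of mixed C57BL/6J and C3H/HeJ background and non-agouti. P21 and P0 DNA were hybridised together on 2 arrays of 1 slide with the dyes exchanged, so that red (Cy5) carried P0 DNA on array A and P21 DNA on array B. The study's design text calls the 2 arrays biological replicates, without the number of animals or any pooling. A p-value thus reflects only differences between these 2 arrays. Limma sets the spread of each run partly from that of all runs tested.

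SmaI and XmaI both recognise CCCGGG, a site with a CpG at its centre. SmaI cuts only unmethylated copies and leaves blunt ends. XmaI, added afterwards, cuts those that SmaI spared, and their sticky ends accept an adaptor. A fragment is thus amplified when both of its end sites were methylated, and a bright run is a place with much amplified product. The signal is not a methylation percentage, since it also depends on how well a fragment is amplified and how well its probes bind. In mammalian tissues most CpG sites outside CpG islands are methylated. In whole hypothalamus a change in the mix of cells and a change within cells cannot be told apart.

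The very bright runs lay far above the bulk of the array. On array A their median level was 14.05 at P21 and 14.08 at P0, on the log2 scale of the processed signal. The array B medians were 13.93 at P21 and 13.79 at P0. The other autosomal runs had medians of 9.06 at P21 and 9.03 at P0 on array A, and of 9.02 at P21 and 8.9996 at P0 on array B. On the linear scale the very bright runs thus had a median of 16906 units at P21 and 17328 at P0 on array A, against 535 and 521 units in the other runs. The highest level of any run was 16.62, read for P21 on array B. All 12021 probes of the very bright runs were well above background in all 4 readings, and none was saturated. The highest spot signal among them was 19.9% of the scanner's saturation value on array A and 22.4% on array B.

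**Figure D1:**
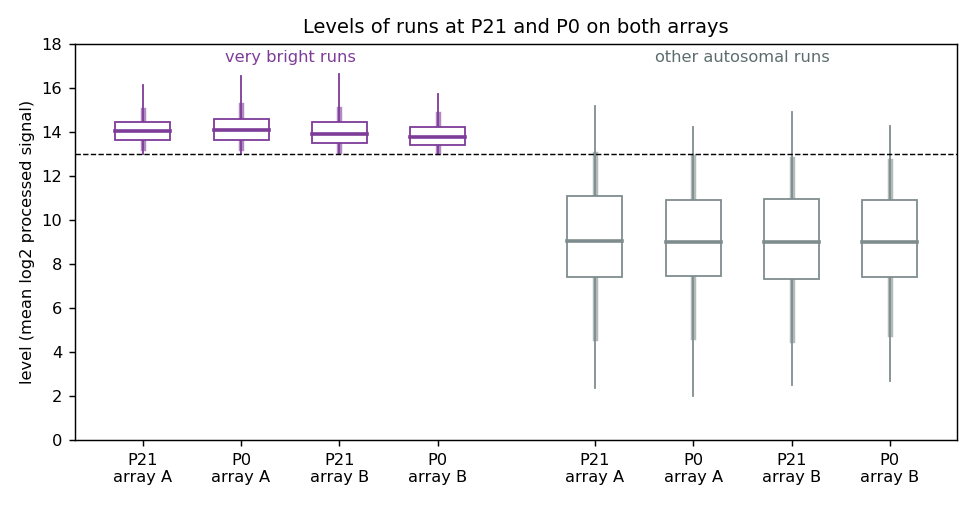
Levels of the very bright runs (left, n = 2718) and the other autosomal runs (right, n = 15649) for P21 and P0 on arrays A and B. The y axis is the mean log2 processed signal of a run. Boxes span the quartiles with the median as a line, thick bars run from the 5th to the 95th percentile, thin lines reach the lowest and highest run, and the dashed line is the floor of 13. Medians of the very bright runs sit between 13.79 and 14.08, and those of the other runs between 8.9996 and 9.06.

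The lowest of the 4 readings was most often the same one. P0 on array B was the lowest of the 4 levels in 1906 of the 2718 runs, or 70.1%. P21 on array B was lowest in 490 runs, P21 on array A in 275 and P0 on array A in 47. Positions here and below are those of genome build mm8. Just inside the floor were a run on chromosome 1 from 94805992 to 94806791, a run on chromosome 9 at 58651487 to 58652457 and a run on chromosome 7 at 80315630 to 80316632, with lowest levels of 13.0001, 13.0001 and 13.0006. Just outside were a run on chromosome 4 from 117778952 to 117779647, a run on chromosome 13 at 73065220 to 73066191 and a run on chromosome 11 at 52514512 to 52515226, with lowest levels of 12.9994, 12.9988 and 12.998. In all 3 of these only P0 on array B was under the floor. The chromosome 11 run had 14.06 at P21 and 13.28 at P0 on array A, and 13.76 at P21 and 12.998 at P0 on array B.

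Most places that were bright at 1 age were bright at the other. The floor was reached at P21 on both arrays by 3078 autosomal runs, of which 88.3% also reached it at P0. It was reached at P0 on both arrays by 2831 runs, of which 96.0% also reached it at P21. At P21 178 runs were over the floor on both arrays while their P0 levels were under it on both. The opposite, P0 over and P21 under the floor on both arrays, held for 36 runs. These counts come from the levels themselves and carry no test.

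What change remained between the ages was small in most of the very bright runs. Ratios are log2 of P21 over P0, centred on the median of each array and averaged over the arrays. They use the same 4 readings on which the floor was set. A run whose level was under the floor at either age on either array could not be chosen. The counts below describe runs under that limit. The mean ratio was within 0.5 log2 units of 0 in 2595 very bright runs, or 95.5%, against 83.7% of the other autosomal runs. Among the 1820 of those others whose lowest level was from 12 to 13, the share was 88.6%. The 5th and 95th percentiles of the mean ratio were -0.31 and 0.39 in the very bright runs, against -0.56 and 0.91 in all other autosomal runs. The median ratio was 0.02, with -0.08 on array A but 0.14 on array B. In the other runs it was -0.03, with -0.0021 on array A but -0.07 on array B. The arrays thus put the median of the very bright runs on opposite sides of 0.

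Of the 2718 very bright runs, 73 were called higher at P21 (2.69%) and 22 lower (0.809%) by limma at an adjusted p under 0.05. The adjustment was made over all 18761 runs tested, of which 7.65% were called higher and 3.99% lower. At an unadjusted p under 0.05 the very bright runs held 193 higher (7.1%) and 114 lower (4.19%), against 12.1% and 12.6% of all runs tested. The 73 raised runs had a median ratio of 0.76 and a range of 0.52 to 1.99. The 22 lowered runs had a median ratio of -0.67 and a range of -0.97 to -0.54. Of the raised runs 66 held 4 probes, as did 17 of the lowered ones. By size, 15 very bright runs were higher (0.552%) and 0 lower, where a mean ratio of at least 1 in size and at least 1.5-fold in the same direction on each array was asked for. Over all runs tested that rule took 3.71% as higher and 0.501% as lower. The balance of limma calls moved with the scaling. After loess within each array 87 were called higher and 68 lower, against 8.99% higher and 5.62% lower among all runs tested in that setting. By size 14 were then higher and 2 lower, against 3.7% and 0.448% of all runs tested. All 73 raised and all 22 lowered runs were again called after loess, with the same sign. With normexp and loess 107 very bright runs were called higher (3.94%) and 82 lower (3.02%), against 5.75% and 1.73% of all runs tested. In that setting the share called lower was above that over all runs, while in the processed ratios and after loess alone it was below. With normexp alone 9 were called higher (0.331%) and 0 lower, against 1.48% and 0.0107%. At an unadjusted p under 0.05 that setting gave 66 and 0, against 4.03% and 0.293%. With trend and robust settings in limma 72 were called higher and 1 lower, against 7.55% and 0.757%.

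The very bright run with the largest remaining gain lay on chromosome 8 from 123012943 to 123013554 and held 4 probes. Its level was 15.45 at P21 and 13.58 at P0 on array A, and 15.20 at P21 and 13.09 at P0 on array B. Both P21 readings were well over both P0 readings, and all 4 probes were higher at P21 on both arrays. The ratio was 1.99 ± 0.17 (SD, n = 2), a 3.98-fold higher signal at P21 (limma adjusted p = 0.000492). Its nearest neighbours, 23909 bp before and 62777 bp after, had ratios of -0.14 and -0.47, neither past the threshold in limma.

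The next gains lay on chromosomes 7, 1, 2, 17 and 7. On chromosome 7 from 44469452 to 44469933 the levels were 15.94 at P21 and 14.61 at P0 on array A, and 15.60 at P21 and 13.85 at P0 on array B. The ratio of this run was 1.54 ± 0.29 (limma adjusted p = 0.00140). On chromosome 2 from 129206826 to 129207375 they were 15.70 at P21 and 14.35 at P0 on array A, and 15.46 at P21 and 13.81 at P0 on array B, with a ratio of 1.496 ± 0.21. That run stood alone, with 181694 bp to the run before it and 176040 bp to the run after it. The runs on chromosome 1 from 138515013 to 138515668 (1.51 ± 0.036), on chromosome 17 from 29544340 to 29544869 (1.47 ± 0.28) and on chromosome 7 from 132573962 to 132574548 (1.42 ± 0.015) complete the 6. All 24 probes of the 6 runs were higher at P21 on both arrays, and the limma adjusted p ran from 0.000492 to 0.00158. The 6 runs were picked by their ratio and its equal sign on both arrays, so these values follow in part from the choice. None of the 12 runs next to them passed the threshold in limma, and 5 of the 6 runs had no neighbour within 10 kb.

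The losses that the floor left were smaller. The lowest ratio was that of the run on chromosome 5 from 143045876 to 143046686, with 4 probes. Its level was 13.19 at P21 and 14.21 at P0 on array A, and 13.26 at P21 and 14.17 at P0 on array B. The P21 readings of both arrays lay below both P0 readings. The ratio was -0.97 ± 0.076, or 1.95-fold lower at P21 (limma adjusted p = 0.00506). The run that follows it after 722 bp, at a mean level of 11.8, had -0.53 on array A and -0.42 on array B (limma adjusted p = 0.0657).

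On chromosome 2 from 91757982 to 91758383 the levels were 13.22 at P21 and 14.46 at P0 on array A, and 13.57 at P21 and 14.23 at P0 on array B. The ratio was -0.95 ± 0.41 (limma adjusted p = 0.0159), with the widest spread between arrays of the 6. The next run, 4290 bp further on, was dim, with a mean level of 5.14. It had a ratio of -0.61 and was also called lower (limma adjusted p = 0.0285). The remaining losses lay on chromosome 11 from 120426191 to 120426469 (-0.88 ± 0.37), on chromosome 17 from 27999772 to 27999991 (-0.77 ± 0.055), on chromosome 17 from 24199863 to 24200438 (-0.76 ± 0.12) and on chromosome 5 from 130434436 to 130434741 (-0.73 ± 0.26). All 23 probes of the 6 runs were lower at P21 on both arrays. These 6 too were picked by ratio and equal sign, so the direction of probes and the adjusted p follow in part from the choice. The limma adjusted p ran from 0.00506 to 0.0231, and after loess the ratios were -1.02 to -0.78. With normexp background correction and no loess none of the 6 losses passed in limma (adjusted p = 0.952 for all 6), and with trend and robust settings 1 of the 6 did.

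**Figure D2:**
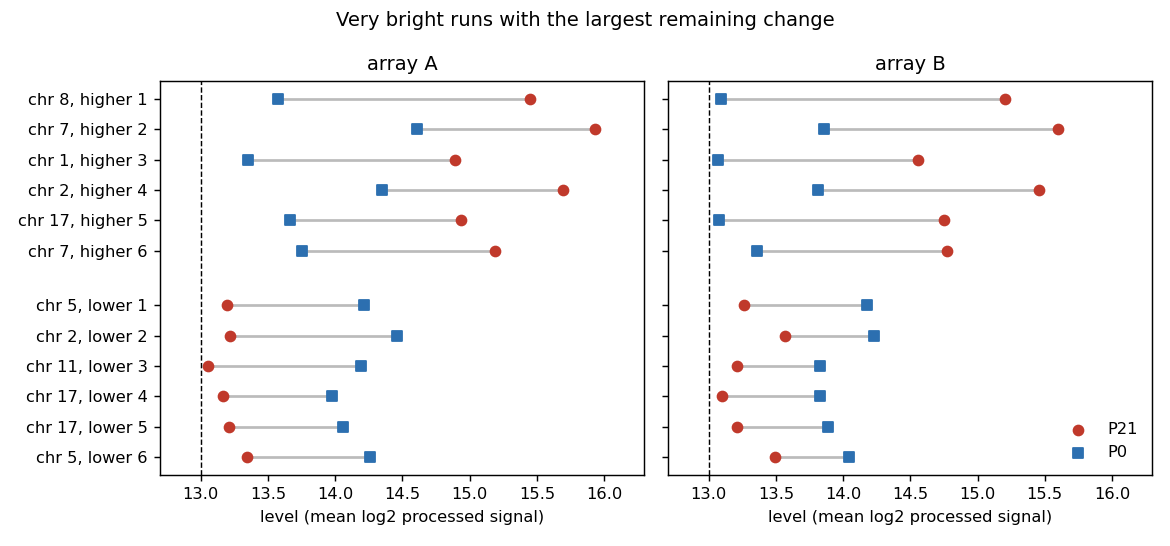
Levels at P21 (red circles) and P0 (blue squares) of the 6 very bright runs with the most positive ratio (upper rows) and the 6 with the most negative ratio (lower rows) on array A and array B. The x axis is the mean log2 processed signal, and the dashed line is the floor of 13. In all upper rows P21 lies above P0, by 1.28 to 2.11 log2 units, and in all lower rows it lies below, by 0.55 to 1.24.

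In the processed ratios, agreement of the arrays was weaker in the very bright runs than just below the floor. Across the 2718 runs the ratios of array A and array B correlated with r = 0.511 (Spearman's rho 0.310), against r = 0.836 (rho 0.626) across the 1820 runs whose lowest level was from 12 to 13. These are descriptions across runs, which share arrays and are not replicates. The value of r also depends on the spread of the ratios, and the same readings set the floor. The 5th and 95th percentiles of the mean ratio were -0.31 and 0.39 in the very bright runs, against -0.33 and 0.83 from 12 to 13. The arrays differed by a median of 0.23 log2 units in the very bright runs and 0.14 in the runs from 12 to 13. Both arrays gave a ratio above 0 in 906 very bright runs and below 0 in 511, while 1301 runs had opposite signs. The same sign was thus found in 52.1%, against 70.5% of the runs from 12 to 13. Loess sets the typical red over green ratio of each array to about 0 at all levels. The changes it brought thus follow in part from the method. After loess most of the gap closed. The arrays then differed by a median of 0.145 log2 units in the very bright runs and 0.135 in the runs from 12 to 13, and the same sign was found in 65.5% and 69.8%. The balance of directions also turned, with 838 very bright runs above 0 on both arrays, 942 below 0 and 938 with opposite signs.

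The disagreement between the arrays grew with the level. Each dye order was used on a single array, so a difference between dyes and a difference between replicates cannot be told apart. When the ratios are read as red over green and not turned by age, both arrays moved the same way. In the 1759 runs with a lowest level from 13 to 14 the median red over green ratio on array A was 0.01, and on array B 0.11. Between 14 and 15 (896 runs) it reached 0.20 on array A, with 0.17 on array B. At 15 or more (63 runs) array A had 0.39 and array B 0.35, and red was the higher channel on both arrays in 62 of the 63. Red carried P0 on array A and P21 on array B, so the turned ratios had opposite signs there. The same sign on both arrays was found in 63.9% of the runs from 13 to 14, in 32.6% of those from 14 to 15 and in 1 of the 63 at 15 or more. The file headers record a multiplicative detrending of the red channel on array A alone, and its part in the result was not tested.

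**Figure D3:**
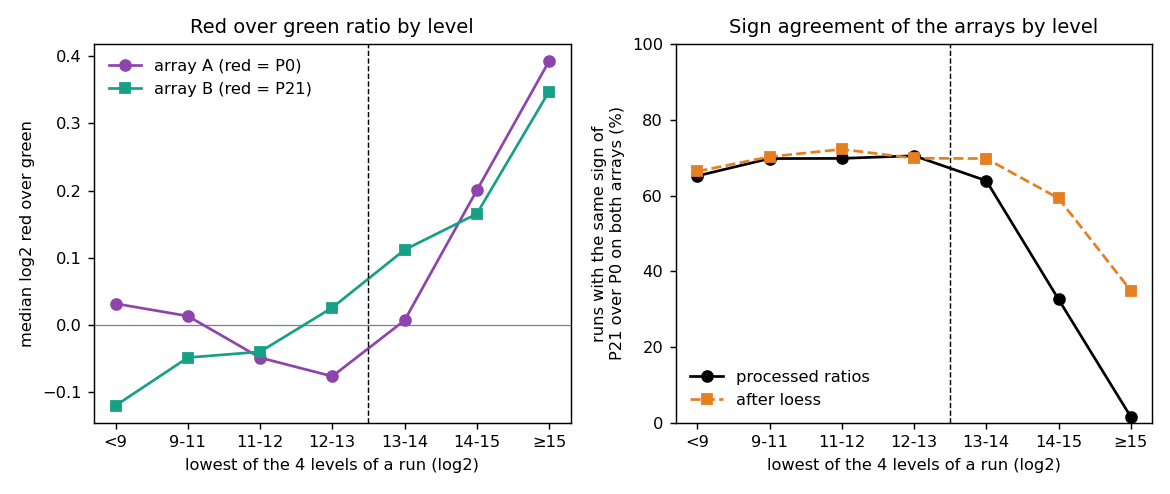
Left, the median log2 red over green ratio of autosomal runs on array A (purple circles, red is P0) and array B (green squares, red is P21) by the lowest of the 4 levels of a run. Right, the percentage of runs with the same sign of P21 over P0 on both arrays, for processed ratios (black) and after loess (orange). The dashed vertical line marks the floor of 13. Right of it both red over green curves climb to 0.39 on array A and 0.35 on array B, and sign agreement drops to 1.59% at 15 or more.

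Limma calls thinned out over the same range. From 13 to 14 there were 71 raised (4.04%) and 20 lowered runs (1.14%). From 14 to 15 there were 2 raised and 2 lowered (0.223% each), and at 15 or more limma called 0 of 63. Over all runs tested 7.65% were called higher and 3.99% lower. The classes are cut by the lowest of the 4 readings, so a run with a large change falls into a lower class. In that last class 0 runs had an unadjusted p under 0.05, and after loess 1 higher and 2 lower runs did. Loess removes a level-dependent difference between red and green within each array, whether it comes from the dyes or from the ages. After loess r was 0.675 in all very bright runs, against 0.850 in the runs from 12 to 13. The counts of raised and lowered runs were then 83 and 52 of 1759 from 13 to 14. They were 4 and 16 of 896 from 14 to 15, and 0 and 0 of 63 at 15 or more. Over all runs tested in that setting 8.99% were called higher and 5.62% lower. Opposite signs remained in the brightest class, where 22 of 63 runs had the same sign after loess.

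**Figure D4:**
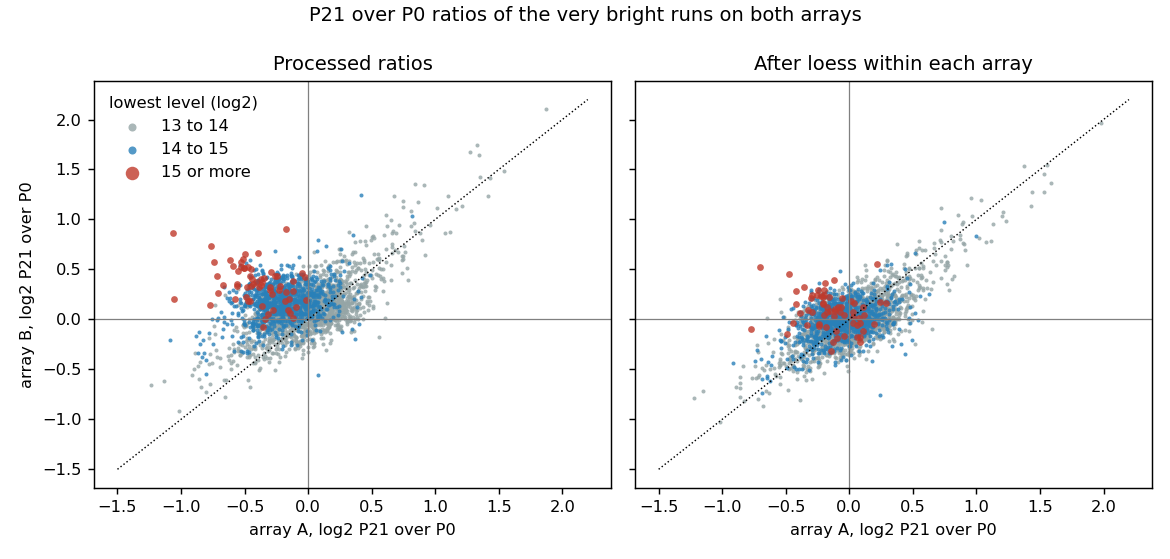
Ratios of P21 over P0 (log2) of the 2718 very bright runs on array A (x axis) and array B (y axis), from processed signals (left) and after loess within each array (right). Points are runs, coloured by their lowest level (grey 13 to 14, blue 14 to 15, red 15 or more), and the dotted line marks equal ratios. On the left 62 of the 63 red points have array A below 0 and array B above 0. After loess r across runs is 0.675, against 0.511 on the left.

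The 8 brightest runs had a mean level from 15.68 to 16.19 over the 4 readings. The first lay on chromosome 13 from 47270868 to 47271002, with 2 probes over 135 bp. Its level was 16.12 at P21 and 16.295 at P0 on array A, and 16.62 at P21 and 15.71 at P0 on array B. Red was the higher channel on both arrays. The second lay on chromosome 13 from 65761234 to 65761582, with 4 probes of 45 nt each. Its level was 15.50 at P21 and 16.56 at P0 on array A, and 16.51 at P21 and 15.65 at P0 on array B. Here too red was higher on both arrays, and array A gave a ratio of -1.06 while array B gave 0.87. This was also the very bright run with the largest difference between arrays, 1.93 log2 units. The others lay on chromosome 3 from 88651257 to 88651687 and from 53566441 to 53566996, on chromosome 5 from 131724290 to 131724985, on chromosome 13 from 67263502 to 67263841, on chromosome 18 from 60704249 to 60704716 and on chromosome 6 from 86606878 to 86607385. All 8 had red over green above 0 on both arrays, and none passed in limma (adjusted p from 0.425 to 0.974, and from 0.107 to 0.984 after loess).

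Run size is given as a description, since the rule used it only through the minimum of 2 probes. Runs of 4 probes made up 72.6% of the very bright runs (1973 runs), against 49.5% of all autosomal runs. That percentage rose with the level on both sides of the floor up to 15. It was 38.7% in runs with a lowest level under 9, 62.6% from 12 to 13 and 69.4% from 13 to 14. From 14 to 15 it was 78.6%, and at 15 or more 77.8%. Of the 9096 autosomal runs with 4 probes 21.7% were very bright. The share was 5.89% of runs with 2 probes, 8.22% with 3, 10.02% with 5 to 8 and 6.95% with over 8. The median was 4 probes in the very bright runs and in the others. A longer run can join several restriction fragments, and its level is then a mean over them.

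The very bright runs were also more compact. Their median span was 516.5 bp (quartiles 352 and 743), against 633 bp (356 and 1021) in the other autosomal runs. Among runs of 4 probes, of which 21.7% were very bright, the share was 16.04% below 300 bp and 32.5% from 300 to 500 bp. It was 29.9% from 500 to 700 bp, 23.3% from 700 to 900 bp and 4.42% at 900 bp or more. The share was thus highest in the middle of the range and low at its long end. Span is measured between the outermost probes and is not the length of a restriction fragment, which needs the sites themselves. The genome sequence of build mm8 was not used here.

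Probe length showed a similar hump. The probes are 45 to 60 nt long, and the mean length in a run had a median of 51.5 nt in the very bright runs, against 52.25 nt in the others. The quartiles were closer together, 48.5 and 54.5 nt, against 47.75 and 56.5 nt. Of runs with a mean length from 45 to 48 nt 11.5% were very bright. The share was 20.8% from 48 to 51 nt, 21.0% from 51 to 54 nt, 15.3% from 54 to 57 nt and 7.75% from 57 to 60 nt. The median level of all autosomal runs was 8.93 in the shortest class, 10.69 in the middle class and 8.75 in the longest. Runs at both ends of the probe length range were therefore dimmer altogether. Base composition of the probes was not analysed here.

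**Figure D5:**
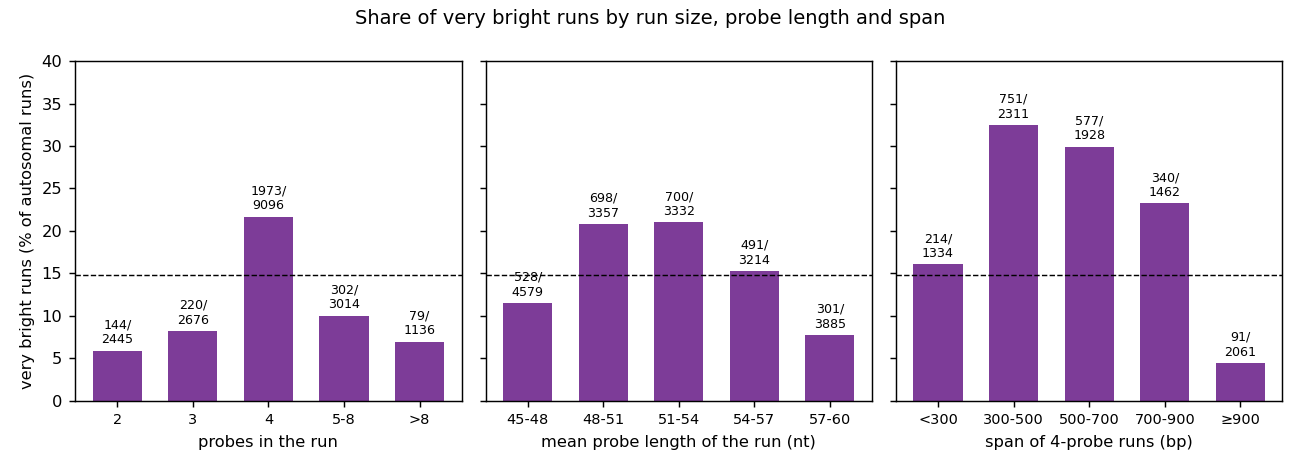
Percentage of autosomal runs that were very bright, by the number of probes in the run (left), the mean probe length in nt (middle) and, for runs of 4 probes, the span in bp (right). Numbers above the bars are very bright runs over autosomal runs, and the dashed line is the 14.8% over all autosomal runs. For the right panel the share over all runs of 4 probes is 21.7%, which is not drawn. The bars peak at 4 probes (21.7%), at 51 to 54 nt (21.0%) and at 300 to 500 bp (32.5%).

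The remaining change shifted with probe length inside the very bright runs. Their median ratio was -0.04 in the class from 45 to 48 nt, -0.01 from 48 to 51 nt, 0.02 from 51 to 54 nt, 0.09 from 54 to 57 nt and 0.13 from 57 to 60 nt. On array A it ran from -0.19 in the shortest class to 0.12 in the longest, and on array B from 0.13 to 0.15, so that the spread over classes was larger on array A. After loess the medians still ran from -0.06 to 0.08. The median level fell over the same classes, from 14.19 in the shortest to 13.63 in the longest, and its part in the result was not tested. In the other autosomal runs the median ratio ran the opposite way, from 0.02 in the shortest class to -0.12 in the longest.

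Probes within a very bright run were fairly even. In runs of 4 probes the median range between the brightest and the dimmest probe was 1.33 log2 units, against 1.69 in the other runs of 4 probes. The probes also agreed on the change, with a median SD of their ratios of 0.042, against 0.078 in the others. Those other runs were much dimmer, with a median inner pair of 9.69 for P21 on array A, against 14.14. The part of the level in this evenness was not tested. Every probe was at 13 or more in all 4 readings in 1318 very bright runs, or 48.5%. In 91 runs at least 1 probe was under 11 in a reading, so that the mean hid a dim probe. Outer and inner probes of a run of 4 hardly differed. The outer pair was lower by a median of 0.042 log2 units for P21 on array A and 0.035 for P0 on array A, and was the lower pair in 52.4% and 51.7% of runs.

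The 4 very bright runs with the most probes held 79 in all, and bright and dimmer probes stood side by side in them. The run on chromosome 15 from 88983861 to 88988477 held 20 probes, whose mean levels went from 11.94 to 16.01, and 15 of them were at 13 or more in all 4 readings. Its level was 14.31 at P21 and 14.54 at P0 on array A, and 14.40 at P21 and 14.19 at P0 on array B. Red was again the higher channel on both arrays. On chromosome 12 from 112619258 to 112624373 a run of 20 probes reached from 10.80 to 16.08, and on chromosome 10 from 79379504 to 79382522 another 20 probes reached from 8.9999 to 15.73. The last, on chromosome 17 from 56453307 to 56457142, held 19 probes from 10.69 to 15.94. Ratios of the 4 runs were small, from -0.06 to 0.22, and none passed in limma (lowest adjusted p = 0.357, highest 0.983).

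Very bright runs were found on all 19 autosomes. Their share among the runs of a chromosome was lowest on chromosome 3 (11.8%) and chromosome 18 (12.04%) and highest on chromosome 5 (17.4%, 262 runs) and chromosome 8 (16.7%, 184 runs). The median level within the group was nearly the same everywhere, from 13.78 on chromosome 13 to 14.11 on chromosome 17. In the first 5 Mb covered by autosomal runs on each chromosome 12.8% of runs were very bright (76 of 593). The share was 16.1% in the last 5 Mb (203 of 1262) and 14.8% in between.

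Most very bright runs stood singly among other runs. The median distance to the nearest other very bright run was 108437 bp (quartiles 34959 and 326814). The nearest autosomal run of any level was 16447 bp away, against 15648 bp for the other runs. Another very bright run lay within 5 kb of 159 runs, or 5.85%. Of the 635 neighbours that lay next to a very bright run within 5 kb, 162 were very bright themselves, or 25.5%. Next to the other runs the share was 8.96% (473 of 5281). The neighbours of very bright runs had a median level of 11.1, against 9.06 for those of the other runs. Even so, 27.7% of them had a mean level under 9, so that brightness could stop within 5 kb.

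In 1 Mb windows 1091 of the 2063 windows with an autosomal run held a very bright run, and 362 held 3 or more. The highest counts were 13 per window. They were found on chromosome 5 from 116 to 117 Mb (13 of 31 runs), on chromosome 8 from 125 to 126 Mb (13 of 38) and on chromosome 5 from 125 to 126 Mb (13 of 49). Unbroken rows of very bright runs with gaps of at most 5 kb were short, with 67 rows of 2 and 7 rows of 3. The brightest row of 3 lay on chromosome 3 from 93367054 to 93378237, with 36 probes over 11184 bp. Its first run, of 4 probes, had 14.85 at P21 and 15.10 at P0 on array A, and 14.99 at P21 and 14.66 at P0 on array B. The middle run, of 16 probes, had 15.24 at P21 and 16.01 at P0 on array A, and 15.81 at P21 and 15.08 at P0 on array B. The last run, also of 16 probes, had 15.03 at P21 and 15.57 at P0 on array A, and 15.45 at P21 and 14.91 at P0 on array B. Red was the higher channel in all 3 runs on both arrays, and their mean ratios were 0.05, -0.02 and 0.00.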

How the data were processed

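The deposited processed intensity values are background-subtracted and linearly dye-normalised signals, and per the file headers the software was version 10.5.1.1 of Feature Extraction. Version 9.1.3.1 stands in the submitters' processing notes. Each deposited log10 ratio sets red against green, per the file headers. The authors' table holds the same log10 ratios, rounded and turned to P21 over P0, so that its scale and direction are known. Control spots and 800 spots with an outlier flag were left out, spots of a probe were averaged (9 probes), and log10 ratios were converted to log2 here, turned by the dyes in the labels and centred on each array's median. Runs were tested with limma 3.58.1 in R 4.3.3 (two-sided, Benjamini-Hochberg over 18761 runs, 1 residual degree of freedom). Neighbours are the next autosomal run on each side. Probe positions are on mm8, the build in the headers, and carry no gene, so genes are not named. The members, lists and tests were chosen with earlier results of these data known. The named runs are the 8 brightest, the 6 with the most positive and the 6 with the most negative ratio of equal sign on both arrays, the 4 with the most probes, the 4 that differ most between arrays, and 3 on either side of the floor. Rows of very bright runs and outer and inner probes were added after seeing the data.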

Additional observations from a re-analysis of the deposited data

Results flagged for a closer look

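The rule took autosomal runs of at least 2 probes, and signal of the same brightness was present outside it. The X-chromosome runs were tested with all others but are not among the very bright runs, and lone probes were not tested. On the X chromosome 72 of 385 runs (18.7%) were at 13 or more in all 4 readings, with a median log2 ratio of -0.12 on array A and 0.12 on array B. Among lone autosomal probes without a neighbour within 500 bp, 119 of 2516 (4.73%) were, with a median of 0.09 on array A and 0.06 on array B.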

How the results depend on the processing

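Each array holds both ages of 1 replicate, so every ratio is already paired and no further paired setting was run. Restricting the rule to runs of exactly 4 probes was chosen after seeing the data. The causes of the moves below were not tested. A floor of 12 took 4538 runs, with 234 called higher, 46 lower, and 76 higher and 3 lower by size. A floor of 14 took 959 runs, with 2 called higher, 2 lower, 0 higher by size and a median difference between arrays of 0.374. Background-subtracted median signals behind the floor took 1604 runs, with 28 called higher, 3 lower and 4 higher by size. These settings changed only which runs were members. Over all runs tested 7.65% were called higher and 3.99% lower, and by size 3.71% were higher and 0.501% lower. After loess 68 were called lower and 2 were lower by size, with a difference between arrays of 0.145. With normexp and loess 82 were called lower, with a difference of 0.140. With normexp alone 9 were called higher and 0 lower (66 and 0 at an unadjusted p under 0.05), 27 were higher by size, the median ratio was 0.25 and the difference between arrays 0.904. The share by size over all runs in that setting is not given, so the 27 cannot be told from a shift of all ratios. With trend and robust settings 1 was called lower. The shares of limma calls over all runs in the loess, normexp and limma settings are given above. With probes well above background only, 2735 runs were taken, with 116 called higher and 58 lower. Runs of 3 or more probes gave 34 lower calls among 2574 runs, and gaps of at most 250 bp gave 2 lower by size among 3255. In these settings the runs tested differed, and the share over all of them is not given. Whether the counts moved more in the very bright runs than in all runs can thus not be told. On a single array, leaving out A or B, the rule of size gave 14 to 22 higher and 0 to 6 lower runs, and the median ratio was -0.08 to 0.14. For these counts too the share over all runs is not given. The other 88 values for these results stayed within 1.5 times the reported count or within the spread of the arrays. The 6 named gains passed in limma in all 6 alternatives run on them.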
